A study of Homo sapiens with 14 samples.

Results

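The cells described here are HepG2 cells 72 and 120 h after transfection with miR-124, set against HepG2 cells at the same times after transfection with a negative control. The comparison rests on 4 of the 14 arrays of the series, chosen by the transfection and the time in their labels. There is 1 array of each transfection at 72 h and 1 of each at 120 h, and each miR-124 array was compared with the control array of its own time. The other 10 arrays hold the same pair of transfections at 4, 8, 16, 24 and 32 h. All groups share the cell line, and the labels name no untreated cells, dose, or identity of the negative control. The labels do not say whether separate cultures were used, and p-values here reflect only how far these arrays vary, which may be technical. The questions were what the response to miR-124 held in common at the later times, and what was seen at 72 h or at 120 h only.

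miR-124 is a microRNA that is abundant in neurons. Loaded into an Argonaute protein, a microRNA pairs through its seed, the bases near its 5′ end, with matching sites in messenger RNAs and lowers their stability and translation. HepG2 is a proliferating human line derived from a liver tumour. It keeps the wild-type p53 gene and secretes many plasma proteins, so a transfected microRNA can be followed in it through both cell cycle and hepatocyte genes.

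The values are log2 expression levels per probe set, so a difference of 1 is a 2-fold difference, and a ratio below is the log2 level in the miR-124 array minus that in the control array of the same time. Each gene is read through 1 probe set, the one brightest on average across the 14 arrays, and 13137 genes were tested. Other probe sets of a gene can differ from it in size or sign, which is given below for some genes only. Hepatocyte markers stood high in all 4 arrays. The mean level of 13 such genes was 12.72 in the control and 12.58 in the miR-124 array at 72 h, and 12.82 and 12.76 at 120 h. Albumin (ALB) read 13.81 in the control and 13.65 in the miR-124 array at 72 h, and 13.84 and 13.69 at 120 h. Markers of blood cells averaged 6.39 to 6.63 and those of fibroblasts and endothelium 6.48 to 6.64 in the 4 arrays. Of the 7 blood markers tested 1 was called, and of the 10 of fibroblasts and endothelium 2. CD3D, a T cell receptor component, read 7.23 (control) and 9.28 (miR-124) at 72 h and 7.59 and 8.42 at 120 h, and ACTA2, smooth muscle actin, 9.02 (control) and 10.38 (miR-124) at 72 h and 9.55 and 10.33 at 120 h, both called higher at both times. PECAM1, an endothelial adhesion protein, was called higher at 72 h only (8.21 in the control and 8.85 with miR-124). The pan-leukocyte marker PTPRC stayed at 5.24 to 5.47 and the endothelial cadherin CDH5 at 4.31 to 4.72. Other markers without a call stood higher in all 4 arrays, such as COL1A1 (8.35 to 8.44), TEK (8.25 to 8.34), HBB (7.91 to 8.22) and CD3E (7.05 to 7.31). The part of these markers in the results was not tested. Probe sets at the 3′ end exceeded those at the 5′ end, a sign of RNA quality, by more in the miR-124 arrays. At 72 h the excess for ACTB was 0.357 with miR-124 and 0.237 in the control, and at 120 h it was 0.411 and 0.102. For GAPDH it was 0.301 and 0.145 at 72 h, and 0.199 and 0.031 at 120 h. Its part in the results was not tested. In bulk RNA, fewer cells of a kind and less RNA per cell cannot be told apart, and array normalization hides any change in the total messenger RNA per cell.

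A gene was called where its Benjamini-Hochberg adjusted p in limma was under 0.05 over all genes tested. The late effect is the mean of the 72 and 120 h ratios, with a spread estimated from changes of the ratio within windows of time: early (4 and 8 h), middle (16 to 32 h) and late. The effects at 72 h, at 120 h and their difference rest on 1 pair each. Their spread comes from the early and middle windows, and these tests assume that a late pair varies as much as those. The late effect was called higher in 2161 genes (16.4% of those tested) and lower in 1660 (12.6%). At 72 h alone 2289 genes were higher (17.4%) and 2603 lower (19.8%), and at 120 h 1911 were higher (14.5%) and 1141 lower (8.69%). With each array centred on its median the split at 120 h became 1478 higher and 1917 lower, with the median ratio moving from −0.011 to −0.105, while 72 h gave 2508 and 2464 and the late effect 1920 and 1979. Centring lowers every ratio at 120 h by the same amount, so the median of a list near 0 there can take the other sign. It moved the 120 h median of the apoptosis regulators from 0.06 to −0.03, of the cytochrome P450 and conjugation enzymes from 0.08 to −0.02, of autophagy from 0.05 to −0.04, of adhesion and actin from 0.08 to −0.02, of epithelial junctions from 0.02 to −0.07 and of the metallothioneins and iron genes from 0.02 to −0.08.

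The response spread wider at 72 h than at 120 h. The SD of the ratio over genes was 0.612 at 72 h and 0.431 at 120 h. At least 2-fold lower were 778 genes at 72 h and 153 at 120 h, and at least 2-fold higher were 506 and 303. Called higher at both times were 1258 genes, 55.0% of those at 72 h and 65.8% of those at 120 h. Called lower at both were 731, 28.1% of those at 72 h and 64.1% of those at 120 h. Past 2-fold the overlap was 213 higher genes (1.62% of all tested, 42.1% of those at 72 h) and 88 lower genes (0.67% of all tested, 11.3% of those at 72 h). Across genes, which are not independent replicates, the ratios at the 2 times correlated at 0.658 (Pearson) and 0.556 (Spearman). The effect itself was called different between the times in 1414 genes, higher at 120 h than at 72 h in 1057 (8.05%) and lower in 357 (2.72%). Centring the arrays turned that split to 605 and 635.

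**Figure D1:**
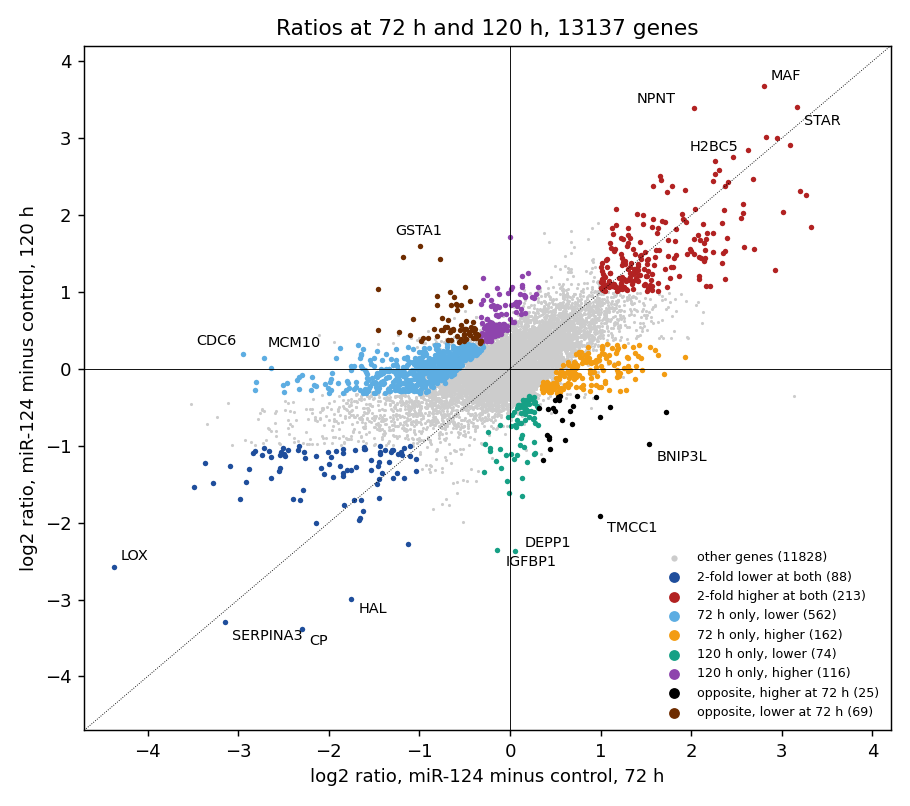
Log2 ratio of miR-124 to control at 72 h (horizontal axis) and at 120 h (vertical axis), 1 point per gene tested, with colours for the classes of genes described in the text and a dotted line where both ratios are equal. LOX and SERPINA3 lie far below 0 on both axes and STAR and MAF far above, CDC6 and MCM10 are low at 72 h only, DEPP1 and IGFBP1 are low at 120 h only, and BNIP3L and GSTA1 lie in quadrants of opposite sign.

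Among the genes at least 2-fold lower at both times, the ones named first are secreted liver proteins and metabolic enzymes. SERPINA3, which encodes the acute phase protease inhibitor α1-antichymotrypsin, measured 11.13 in the control and 7.98 in the miR-124 array at 72 h, and 13.08 and 9.78 at 120 h. The control was higher at 120 h than at 72 h and both miR-124 values lay below both control values, so the groups did not overlap. The late effect was −3.22 ± 0.09 (SE; limma adjusted p = 6.63e-06), or 9.31-fold lower. CP, the copper-carrying plasma protein ceruloplasmin, measured 9.21 in the control and 6.91 in the miR-124 array at 72 h, and 11.68 and 8.30 at 120 h. Its ratio deepened from 4.91-fold lower to 10.4-fold lower, and the difference of −1.08 ± 0.17 was called (limma adjusted p = 0.00925). HP, haptoglobin, which binds free haemoglobin, went the other way in time, being 9.72-fold lower at 72 h and 2.8-fold lower at 120 h. Its levels were 11.20 (control) and 7.92 (miR-124) at 72 h and 11.12 and 9.64 at 120 h, and the control hardly moved. HAL, histidine ammonia-lyase, which starts the breakdown of histidine, measured 8.08 (control) and 6.33 (miR-124) at 72 h and 9.16 and 6.17 at 120 h. There the control rose while the miR-124 arrays stayed close together, and the ratio grew from 3.37-fold lower to 7.95-fold lower.

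The lowest late effect of all named genes was that of LOX, lysyl oxidase, which cross-links collagen and elastin. It read 9.75 in the control and 5.38 in the miR-124 array at 72 h, and 10.97 and 8.39 at 120 h. Both arms rose with time, the miR-124 arrays stayed below both controls, and the late effect was −3.48 ± 0.45 (limma adjusted p = 0.00144). The ratios of its 3 probe sets ran from −4.37 to −0.52 at 72 h and from −2.62 to −2.04 at 120 h. CD164, a sialomucin reported as a miR-124 target, measured 11.82 in the control and 8.34 in the miR-124 array at 72 h, and 11.92 and 10.39 at 120 h. Its controls were level, its ratio shrank from 11.2-fold lower to 2.9-fold lower, and the difference of 1.95 ± 0.47 was called (limma adjusted p = 0.0374). ATP6V0E1, part of the pump that acidifies lysosomes, was 10.3-fold lower and then 2.33-fold lower. For mitochondrial metabolism, SUCLG2 (a succinyl-CoA ligase subunit) was 7.88-fold lower at 72 h and 3.24-fold lower at 120 h, and ACAA2 (the last enzyme of the fatty acid oxidation spiral) was 7.55-fold lower and 2.77-fold lower. The ratios of the 3 ACAA2 probe sets ran from −2.92 to −0.39 at 72 h and from −1.47 to −0.12 at 120 h. CENPQ, a component of the inner kinetochore, was 8.54-fold lower at 72 h and 2.4-fold lower at 120 h.

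Genes reported elsewhere as miR-124 targets were mostly lower at both times. Of 31 tested, 25 were called lower at 72 h and 17 at 120 h, against 1 called higher at 72 h (RDH10). Their ratios had a median of −0.89 at 72 h and −0.54 at 120 h, beside 0.02 and −0.01 over all genes tested. VAMP3, a vesicle fusion protein, measured 11.25 in the control and 8.41 in the miR-124 array at 72 h, and 11.13 and 10.04 at 120 h. CDK4, the kinase of the G1 phase, measured 11.04 (control) and 8.32 (miR-124) at 72 h and 10.65 and 9.69 at 120 h. Both were below their controls in each array, and for both the ratio shrank with time by the test of the difference. IQGAP1, an actin scaffold, was 4.88-fold lower at 72 h and 2.98-fold lower at 120 h, and CERS2, a ceramide synthase, 5.81-fold lower and 2.18-fold lower. The effect differed between the times in 9 members, each with the higher ratio at 120 h, or in 5 without the time block or with centred arrays and 4 without the 24 h arrays.

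PTBP1 and PTBP2 formed a reciprocal pair at both times by the probe sets used. PTBP1, the splicing repressor that miR-124 lowers in developing neurons, measured 11.65 in the control and 9.57 in the miR-124 array at 72 h, and 11.41 and 10.90 at 120 h. PTBP2, its neuronal paralogue, measured 7.23 in the control and 9.50 in the miR-124 array at 72 h, and 6.91 and 9.45 at 120 h. The PTBP1 levels of the miR-124 arrays lay below both controls and the PTBP2 levels above both. The other PTBP1 probe set above the minimum level hardly moved, with ratios of −0.05 at 72 h and −0.1 at 120 h. PTBP2 was 4.82-fold higher at 72 h and 5.81-fold higher at 120 h with no called difference. In the list of 23 neuron genes tested it was joined by NRCAM, a neuronal cell adhesion molecule (4.71-fold higher and 5.45-fold higher), and KIF5C, a neuronal kinesin (2.97-fold higher and 3.6-fold higher). In that list 7 were called higher and 1 lower at 72 h, 4 and 1 at 120 h, with medians of 0.03 and −0.06. The shares of all genes tested were 17.4% higher and 19.8% lower at 72 h, and 14.5% and 8.69% at 120 h. Among REST, the repressor of neuronal genes in other cells, and its partners, the phosphatases CTDSP1, CTDSP2 and CTDSPL were called lower at both times. CTDSP1 had ratios of −1.03 at 72 h and −0.61 at 120 h, CTDSP2 −0.61 at 72 h and −0.74 at 120 h, and CTDSPL −0.82 at 72 h and −1.17 at 120 h, though 1 of the 4 CTDSPL probe sets had the opposite sign at 72 h. RCOR1, a REST corepressor, was called lower at 72 h (−0.97) and not at 120 h (−0.18).

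The genes highest at both times were of mixed function. STAR, which moves cholesterol into mitochondria at the start of steroid synthesis, measured 6.38 in the control and 9.55 in the miR-124 array at 72 h, and 5.85 and 9.25 at 120 h. MAF, a basic leucine zipper transcription factor, measured 6.15 in the control and 8.95 in the miR-124 array at 72 h, and 5.56 and 9.24 at 120 h. In both, each miR-124 array exceeded both controls by more than 2 log2 units. The mean of the 7 control arrays was 5.98 for STAR and 5.63 for MAF, below the minimum of 6.19 that the mean of all 14 arrays had to pass, so both were tested through their miR-124 arrays and the control levels may be background. The same held for 18 of the 213 genes at least 2-fold higher at both times, these included. The fitted late effects were 3.29 ± 0.19 for STAR (limma adjusted p = 0.000106) and 3.24 ± 0.25 for MAF (limma adjusted p = 0.000212). SULT1C2 and SULT1C4, sulfotransferases of conjugation metabolism, were both higher: SULT1C2 5.5-fold higher at 72 h and 6.73-fold higher at 120 h, and SULT1C4 9.6-fold higher and 4.82-fold higher. NPNT, an extracellular matrix ligand of integrins, measured 7.93 (control) and 9.96 (miR-124) at 72 h and 6.36 and 9.75 at 120 h, and its ratio grew as the control fell. This holds for the probe set used, since its 2 probe sets had ratios of 0.08 to 2.03 at 72 h and 0.35 to 3.39 at 120 h. VNN1, the pantetheinase that recycles vitamin B5, measured 7.05 (control) and 9.46 (miR-124) at 72 h and 7.73 and 10.17 at 120 h. EPB41L1, a membrane skeleton protein, was 9.21-fold higher at 72 h and 4.97-fold higher at 120 h by the probe set used, while 1 of its 3 probe sets had the opposite sign at 120 h.

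Replication-dependent histone genes, whose products package new DNA, were higher wherever they were called. Of 31 such genes on the array 14 were tested, and 8 were called higher at 72 h and 9 at 120 h. Over all genes tested 17.4% were called higher at 72 h and 14.5% at 120 h. H2BC5 measured 8.11 in the control and 10.94 in the miR-124 array at 72 h, and 8.01 and 11.03 at 120 h. H1-2, a linker histone, measured 6.85 (control) and 9.94 (miR-124) at 72 h and 6.81 and 9.72 at 120 h. H2BC21 measured 7.31 (control) and 10.26 (miR-124) at 72 h and 7.39 and 10.39 at 120 h. In these genes controls and miR-124 cells were each level from 72 to 120 h, and the groups lay far apart. H2BC5 had a late effect of 2.92 ± 0.11 (limma adjusted p = 3.22e-05). H2AC6 was 6.44-fold higher and 5.56-fold higher, H2BC4 4.95-fold higher and 6.02-fold higher, and H2BC9 1.87-fold higher and 2.49-fold higher. These paralogues share much sequence, so probe sets may read more than 1 of them. The same holds for the CYP3A genes, where the probe set named CYP3A7-CYP3A51P was 6.18-fold higher and 7.19-fold higher and CYP3A5 3.84-fold higher and 3.76-fold higher.

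**Figure D2:**
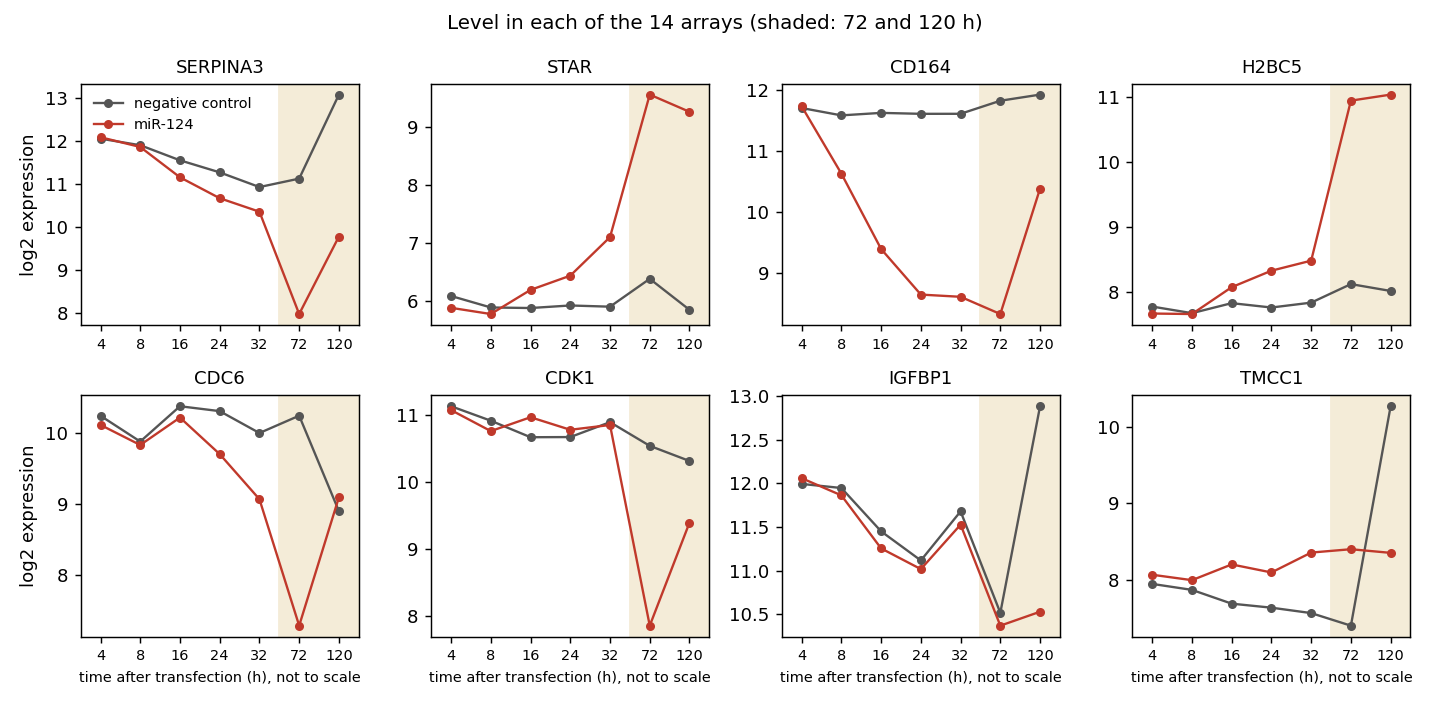
Log2 level of 8 genes over the 7 times from 4 to 120 h in control and miR-124 arrays, 1 array per point. SERPINA3 and CD164 are lower and STAR and H2BC5 higher with miR-124 at both late times, CDC6 and CDK1 dip in the miR-124 cells at 72 h, and at 120 h IGFBP1 and TMCC1 are higher in the control than with miR-124.

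Targets of p53, the stress-activated tumour suppressor, were called in the higher direction wherever they were called. Of 24 tested 19 were called higher at 72 h and 10 at 120 h, with medians of 0.81 and 0.47. TP53I3, an oxidoreductase induced by p53, measured 8.85 in the control and 11.77 in the miR-124 array at 72 h, and 8.64 and 9.92 at 120 h. FAS, the death receptor, measured 7.98 (control) and 10.06 (miR-124) at 72 h and 7.96 and 9.42 at 120 h. The miR-124 arrays lay above both controls in each, highest at 72 h. The difference between the times was called in 2 members, GDF15 (ratios of 1.09 at 72 h and −0.27 at 120 h) and CCNG1 (0.45 at 72 h and −0.25 at 120 h), or 1 without the 24 h arrays and 0 without the time block. Both were named after their values were seen. DDB2, a DNA damage sensor, was 3.54-fold higher and 1.87-fold higher, and TIGAR, which slows glycolysis, 2.95-fold higher and 2.23-fold higher. SESN1, a sestrin, was 2.8-fold higher at 72 h and 1.78-fold higher at 120 h, called at 72 h alone. Among apoptosis regulators, BIK, a pro-death member of the BCL2 family, measured 7.53 (control) and 9.19 (miR-124) at 72 h and 7.37 and 9.83 at 120 h, and PMAIP1, another, was 2.42-fold higher and 2.21-fold higher. CASP6, an executioner caspase, was called lower at 72 h (−1.70) and not at 120 h (−0.32).

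Acute phase proteins, the plasma proteins that hepatocytes make more of in inflammation, were lower at both times. Of 17 tested 12 were called lower and 1 higher at 72 h, and 9 and 1 at 120 h, with medians of −0.69 and −0.93. Beside SERPINA3, CP and HP these included ORM1, orosomucoid, which measured 12.39 (control) and 10.38 (miR-124) at 72 h and 11.88 and 10.80 at 120 h, and FGA, a fibrinogen chain, 2.8-fold lower and 1.96-fold lower. HAMP, the iron hormone hepcidin, had ratios of −1.46 at 72 h and 0.32 at 120 h, and was not called at 120 h. The transcription factors of these genes differed in time. CEBPD, which drives acute phase genes, was 3.17-fold lower at 72 h and 3.9-fold lower at 120 h. CEBPA, which sustains the hepatocyte program, measured 10.58 in the control and 8.70 in the miR-124 array at 72 h, and 9.79 and 10.07 at 120 h. CEBPD was therefore below its control at both times and CEBPA at 72 h alone, with a called CEBPA difference of 2.15 ± 0.34 (limma adjusted p = 0.00956).

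Other plasma proteins were called in both directions. Of 29 other secreted liver proteins tested 7 were called lower and 3 higher at 72 h, and 10 and 2 at 120 h. F5, coagulation factor V, was 3.76-fold higher at 72 h and 3.85-fold higher at 120 h, while TFPI, which inhibits the start of coagulation (1.56-fold lower and 2.33-fold lower), PROS1, protein S (1.54-fold lower and 2.08-fold lower) and SERPINC1, antithrombin (2.32-fold lower and 1.64-fold lower), were called lower at both times. These are the members named by size. Cytochrome P450 and conjugation enzymes were called higher in 5 of 20 at 72 h and 7 at 120 h, and lower in 3 and 1. Beside both lists, 19.8% of all genes tested were called lower and 17.4% higher at 72 h, and 8.69% and 14.5% at 120 h. CYP4F2 and CYP4F3, which oxidise fatty acids and leukotrienes and are close paralogues, were 2.73-fold higher and 2.46-fold higher at 72 h and 2.8-fold higher and 3.34-fold higher at 120 h.

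Fatty acid oxidation and the response to amino acid shortage were lower at both times. Of 19 fatty acid oxidation and ketogenesis genes 11 were called lower at 72 h and 9 at 120 h, 2 higher at each, with medians of −0.42 and −0.36. CPT1A, the gate of long-chain fatty acids into mitochondria, was 1.75-fold lower and 2.06-fold lower, and ETFB, an electron carrier of that pathway, 1.89-fold lower and 2.03-fold lower. Targets of ATF4, the transcription factor of the amino acid response, were called lower in 12 of 25 at 72 h and 13 at 120 h, and higher in 4 at 72 h alone. CTH, which makes cysteine from cystathionine, measured 8.39 in the control and 6.56 in the miR-124 array at 72 h, and 9.51 and 7.74 at 120 h. It was lower at both times with no called difference. ASNS, asparagine synthetase, measured 9.41 in the control and 8.78 in the miR-124 array at 72 h, and 11.03 and 9.55 at 120 h. In ASNS the control rose by more than the miR-124 cells, and the ratio fell further, from −0.63 to −1.48 (limma adjusted p of the difference = 0.0203). SLC7A11, the cystine importer, was 1.83-fold lower and 2.4-fold lower, and PCK2, mitochondrial phosphoenolpyruvate carboxykinase, 1.84-fold lower and 2.38-fold lower.

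Genes of the matrix, junction and signalling lists were called in both directions. Of 30 extracellular matrix genes 5 were higher and 8 lower at 72 h, and 3 and 9 at 120 h. Beside this list and those below, 17.4% of all genes tested were higher and 19.8% lower at 72 h, and 14.5% and 8.69% at 120 h. TIMP2, an inhibitor of matrix proteases, was 3.8-fold higher and 5.02-fold higher, and COL4A5, a basement membrane collagen, 5.13-fold higher and 4.19-fold higher. The collagen-modifying enzymes P4HA1 (4.42-fold lower and 4.03-fold lower) and PLOD2 (3.07-fold lower and 3.59-fold lower) were lower like LOX. Of 42 adhesion and actin genes 15 were higher and 10 lower at 72 h, and 8 and 5 at 120 h. Of 20 epithelial junction genes 6 were higher and 3 lower at 72 h, and 4 and 2 at 120 h. CDH1, the epithelial cadherin, measured 8.87 (control) and 10.19 (miR-124) at 72 h and 8.79 and 10.50 at 120 h. Both miR-124 arrays exceeded both controls. Of 21 Hippo and Notch genes 9 were higher and 6 lower at 72 h, and 7 and 4 at 120 h. LATS2, a Hippo kinase, was 3.11-fold higher and 2.01-fold higher. Of 13 MAPK feedback genes 4 were higher and 2 lower at 72 h, and 4 each way at 120 h. EREG, a ligand of the EGF receptor, measured 6.58 (control) and 6.95 (miR-124) at 72 h and 6.19 and 7.95 at 120 h and was higher by more at 120 h (difference 1.39 ± 0.16, limma adjusted p = 0.00367). Of 16 Wnt targets 5 were higher and 3 lower at 72 h, and 5 and 1 at 120 h. DKK4, a secreted Wnt inhibitor, was 1.59-fold higher and 3.47-fold higher. Of 16 immediate early genes 3 were higher and 2 lower at each time. EGR1, an immediate early transcription factor, was 2.46-fold lower and 2.69-fold lower.

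**Figure D3:**
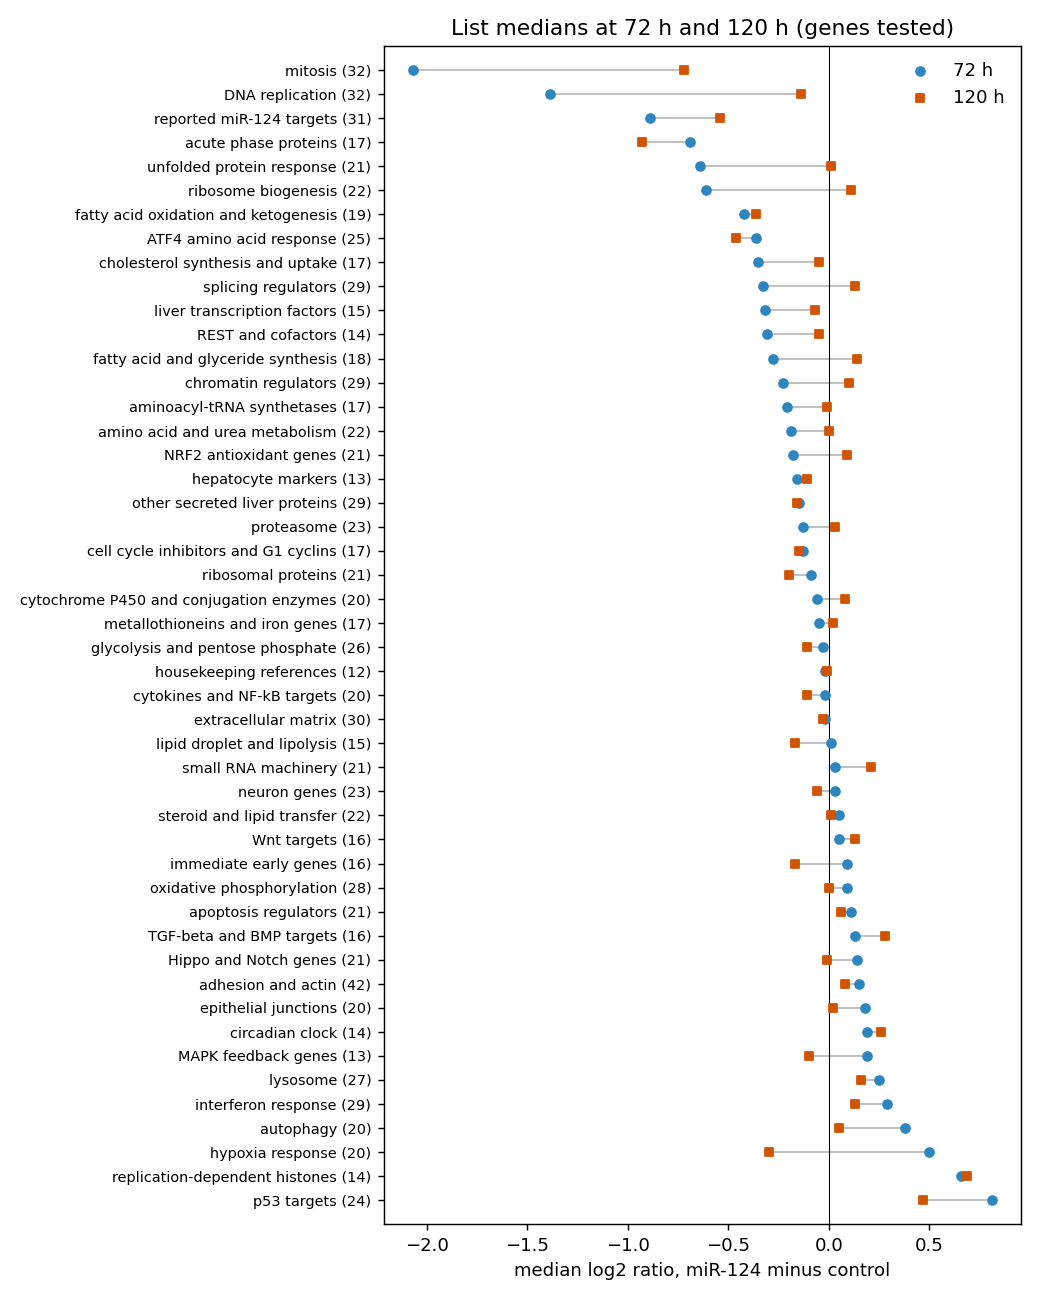
Median log2 ratio of miR-124 to control (horizontal axis) in each gene list with at least 12 tested genes, 1 row per list with its number of genes, circles for 72 h and squares for 120 h. Mitosis (−2.07 and −0.72) lies lowest at 72 h, acute phase proteins (−0.69 and −0.93) lie below 0 at both times, p53 targets (0.81 and 0.47) above 0 at both, and hypoxia response (0.50 and −0.30) changes sign.

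Mitotic genes were lower at both times, and far lower at 72 h. All 32 tested were called lower at 72 h and 25 at 120 h. The difference between the times was called in 30, in each toward a smaller effect at 120 h. The ratios of these genes had a median of −2.07 at 72 h and −0.72 at 120 h, with a range of −3.34 to −1.29 and of −1.12 to −0.27. CDK1, the kinase that starts mitosis, measured 10.54 in the control and 7.85 in the miR-124 array at 72 h, and 10.31 and 9.39 at 120 h. NCAPG, a condensin subunit, was 10.2-fold lower at 72 h and 1.65-fold lower at 120 h. TOP2A, which untangles chromosomes, measured 11.16 in the control and 8.57 in the miR-124 array at 72 h, and 11.03 and 10.23 at 120 h. Controls of these genes were level or slightly lower at 120 h, and the 72 h miR-124 array was the lowest of the 4 in each. KIF11, the kinesin that separates spindle poles, was 6.22-fold lower at 72 h and 1.75-fold lower at 120 h.

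DNA replication genes were lower mainly at 72 h. Of 32 tested 29 were called lower at 72 h and 9 at 120 h, and the difference was called in 24, with medians of −1.39 and −0.14. The count at 120 h was 3 without the time block. CDC6, which loads the replicative helicase at origins, measured 10.24 in the control and 7.30 in the miR-124 array at 72 h, and 8.90 and 9.10 at 120 h. MCM10, which helps start the helicase, measured 9.22 in the control and 6.51 in the miR-124 array at 72 h, and 7.87 and 8.00 at 120 h. In both the 72 h control was the highest array and the 72 h miR-124 array the lowest, with the 120 h arrays close together between them. From 72 to 120 h the level of CDC6 changed by −1.34 in the control and by 1.80 with miR-124, and that of MCM10 by −1.36 and 1.49, so both arms make up the difference. The 120 minus 72 h difference was 3.14 ± 0.30 for CDC6 (limma adjusted p = 0.00307) and 2.85 ± 0.32 for MCM10 (limma adjusted p = 0.00367), although the 3 MCM10 probe sets differed in sign near 0 at 120 h. RRM2, the small subunit of ribonucleotide reductase, measured 12.23 (control) and 9.44 (miR-124) at 72 h and 11.49 and 10.83 at 120 h and was still called lower at 120 h. MCM7, a helicase subunit, was 4.27-fold lower and 1.57-fold lower.

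The promoters of 2 mitotic and 2 replication genes are printed as examples. They were taken, by their low ratio at 72 h, from members whose promoter held the motifs marked. They carry these motifs by choice, and not every member of each list has them. RefSeq sequences on GRCh38.p14 run from 250 bases before to 50 bases after the annotated start, all on the + strand here, with motif matches in capitals. CDK1 lies at chr10:60778081-60778380, KIF11 at chr10:92592880-92593179, CDC6 at chr17:40287629-40287928 and MCM10 at chr10:13161308-13161607. In CDK1 and KIF11 the capitals mark TTTGAA, the cell cycle homology region motif of genes active in late cell cycle, and CCAAT, and in CDC6 and MCM10 they mark TTTGGCGC, TTTCCCGC or TTTGGCGG, forms of the E2F motif. Both strands were searched, so a capital run may be the reverse complement, and overlapping matches share their capitals.
CDK1: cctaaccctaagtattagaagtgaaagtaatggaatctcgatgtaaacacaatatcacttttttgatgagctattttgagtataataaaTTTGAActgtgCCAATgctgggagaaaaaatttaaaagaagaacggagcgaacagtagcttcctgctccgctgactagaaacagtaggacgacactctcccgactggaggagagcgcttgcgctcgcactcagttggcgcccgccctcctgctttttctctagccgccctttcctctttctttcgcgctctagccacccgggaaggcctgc
KIF11: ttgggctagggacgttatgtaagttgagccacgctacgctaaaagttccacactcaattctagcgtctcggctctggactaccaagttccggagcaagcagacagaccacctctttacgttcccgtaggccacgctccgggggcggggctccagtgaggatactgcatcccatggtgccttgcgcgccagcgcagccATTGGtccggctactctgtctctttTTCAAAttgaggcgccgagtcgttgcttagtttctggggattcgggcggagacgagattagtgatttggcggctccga
CDC6: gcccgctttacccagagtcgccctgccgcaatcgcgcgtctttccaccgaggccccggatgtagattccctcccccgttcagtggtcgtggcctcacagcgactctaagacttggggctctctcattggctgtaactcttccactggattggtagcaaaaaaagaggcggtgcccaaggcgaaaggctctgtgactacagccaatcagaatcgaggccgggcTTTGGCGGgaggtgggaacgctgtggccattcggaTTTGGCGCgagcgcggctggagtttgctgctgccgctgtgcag
MCM10: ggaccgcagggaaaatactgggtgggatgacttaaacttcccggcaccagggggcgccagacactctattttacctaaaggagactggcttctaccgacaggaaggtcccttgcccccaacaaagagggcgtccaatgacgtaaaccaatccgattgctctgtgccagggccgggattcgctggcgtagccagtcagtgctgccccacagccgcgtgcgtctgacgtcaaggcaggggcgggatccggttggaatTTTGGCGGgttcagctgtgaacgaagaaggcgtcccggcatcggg
Of the 32 mitotic genes 26 had a promoter in the RefSeq table, and 18 of these (69.2%) held TTTGAA and 19 (73.1%) CCAAT, against 15.4% and 35.7% of all 27305 promoters of that length and 9.9% and 36.3% of those of the genes tested. Of 29 replication promoters 17 (58.6%) held an E2F form, against 2.9% of all and 4.4% of those of the genes tested. A match is a description of these letters and not evidence of binding.

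Over all genes tested, 562 were lower at 72 h only. These were called lower at 72 h, called for the difference, and neither called at 120 h nor changed there by as much as 25% upward or the same fold downward. As a group they had a median ratio of −0.87 at 72 h and of 0.01 at 120 h, values which chose them and are given as a description. HELLS, a chromatin remodeller needed for DNA methylation, measured 9.09 in the control and 6.27 in the miR-124 array at 72 h, and 8.32 and 8.05 at 120 h. SKP2, which marks the cell cycle inhibitor p27 for degradation, measured 10.49 in the control and 7.68 in the miR-124 array at 72 h, and 9.68 and 9.51 at 120 h. LMNB1, the nuclear lamina protein lamin B1, measured 9.20 in the control and 6.56 in the miR-124 array at 72 h, and 8.35 and 8.36 at 120 h. In each, as in CDC6, the 72 h control was the highest array and the 72 h miR-124 array the lowest. G3BP1, which seeds stress granules, read 10.95 (control) and 8.46 (miR-124) at 72 h and 10.44 and 10.15 at 120 h, and KISS1R, a G protein-coupled receptor for kisspeptin, 9.80 (control) and 7.46 (miR-124) at 72 h and 9.19 and 9.04 at 120 h. GINS2 and RFC5, further replication factors, were 5.52-fold lower and 5.03-fold lower at 72 h, and OTUD6B, a deubiquitinase, 5.69-fold lower. The ratios of the 5 G3BP1 probe sets ran from −2.49 to −0.05 at 72 h and from −1.0 to −0.04 at 120 h. Those of the 3 RFC5 probe sets ran from −2.33 to −1.46 and from −1.07 to −0.1. For the 2 of GINS2 they were −2.47 to −0.15 and −0.18 to −0.08. The class therefore holds for the probe set used, and some G3BP1 and RFC5 probe sets stayed lower at 120 h.

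Growth and protein-folding genes were among those lower at 72 h. Of 22 ribosome biogenesis genes 17 were called lower at 72 h and 2 at 120 h, and 10 differed between the times, with medians of −0.61 and 0.11. That count of differences was 1 without the time block and 4 without the 24 h arrays. POLR1B, a subunit of RNA polymerase I, was 2.11-fold lower, and the nucleolar proteins NOP16 and NOP14 2.03-fold lower and 2.27-fold lower, all at 72 h. The unfolded protein response, which expands the folding capacity of the endoplasmic reticulum, had 14 of 21 called lower at 72 h and 2 at 120 h, with 8 differences called (4 without the time block) and medians of −0.64 and 0.01, the latter −0.08 under centring. SDF2L1, an endoplasmic reticulum cochaperone, measured 9.37 in the control and 7.45 in the miR-124 array at 72 h, and 8.44 and 8.59 at 120 h. MANF, a secreted stress protein, measured 11.43 in the control and 10.00 in the miR-124 array at 72 h, and 10.97 and 10.90 at 120 h. In both the 72 h miR-124 array was lowest, the 72 h control highest and the 120 h pair nearly equal. XBP1, a transcription factor of that response, was 2.41-fold lower and 1.28-fold lower. The ribosomal proteins themselves were called lower in 5 of 21 at 72 h and 6 at 120 h, beside 19.8% and 8.69% of all genes tested.

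Chromatin and splicing regulators followed the same course in part. Of 29 chromatin regulators 10 were called lower at 72 h and 3 at 120 h, and 8 differences were called, or 3 without the time block or without the 24 h arrays. UHRF1, which keeps DNA methylation through replication, measured 10.10 in the control and 7.99 in the miR-124 array at 72 h, and 9.48 and 9.92 at 120 h. EZH2, the methyltransferase of Polycomb repression, measured 8.92 in the control and 6.95 in the miR-124 array at 72 h, and 8.25 and 8.19 at 120 h. In both the 72 h miR-124 array was the lowest and the 72 h control the highest. DNMT1, the maintenance methyltransferase, was 2-fold lower and 1.05-fold higher. Of 29 splicing regulators 16 were called lower and 5 higher at 72 h, and 3 and 6 at 120 h, where centring left 2 higher. SRSF7, a serine/arginine-rich splicing factor, was 1.95-fold lower at 72 h and 1.15-fold higher at 120 h. Genes of cholesterol synthesis were lower in 9 of 17 at 72 h and 3 at 120 h. Among all genes tested 19.8% were called lower and 17.4% higher at 72 h, and 8.69% and 14.5% at 120 h.

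**Figure D4:**
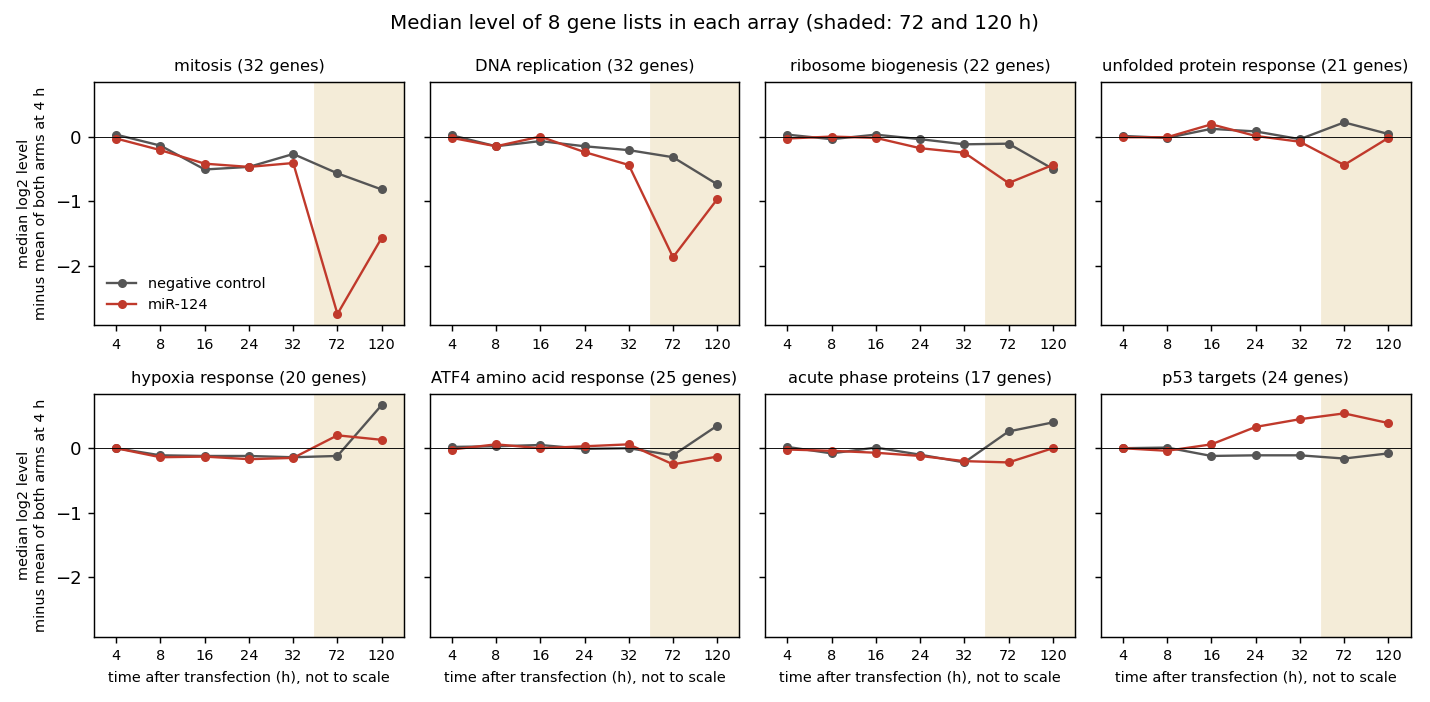
Median log2 level of 8 gene lists over 7 times in control and miR-124 arrays, relative to the mean of both arrays at 4 h. At 72 h mitosis stands at −2.75 with miR-124 and −0.57 in the control and at 120 h at −1.57 and −0.82, while hypoxia response rises in the control from −0.12 to 0.67 and stays near 0.20 and 0.13 with miR-124.

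Higher at 72 h only were 162 genes, with a median ratio of 0.78 at 72 h and −0.05 at 120 h. CAVIN2, a caveolar coat protein, measured 6.21 in the control and 8.14 in the miR-124 array at 72 h, and 7.91 and 8.06 at 120 h. ANKRA2, an ankyrin repeat protein, measured 8.23 in the control and 9.92 in the miR-124 array at 72 h, and 9.47 and 9.41 at 120 h. ARID5B, a transcription regulator, had ratios of 1.46 at 72 h and −0.01 at 120 h. In the first 2 the 72 h control was the lowest array and the control reached the miR-124 level by 120 h. ASB2, a ubiquitin ligase subunit, did otherwise, with ratios of 1.64 at 72 h and 0.18 at 120 h, where the miR-124 cells came down. CCN1, a matricellular protein and Hippo pathway target, read 8.32 (control) and 9.74 (miR-124) at 72 h and 8.97 and 9.14 at 120 h. RORA, a nuclear receptor of clock and lipid genes, was 2.92-fold higher at 72 h and 1.22-fold higher at 120 h, though its 3 probe sets differed in sign at 120 h.

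Metallothioneins, which bind zinc and copper, were part of this. MT1X measured 9.77 in the control and 11.15 in the miR-124 array at 72 h, and 9.91 and 9.95 at 120 h. Its 2 controls and the 120 h miR-124 array were alike, and the 72 h miR-124 array was higher. MT1E was 4.22-fold higher at 72 h and 1.82-fold higher at 120 h, and MT1F 2.29-fold higher and 1.05-fold higher. These paralogues may share signal. In the list of metallothionein and iron genes 7 of 17 were called higher at 72 h and 2 at 120 h, and 4 and 2 lower, which centring made 1 higher and 4 lower at 120 h. Autophagy genes were called higher in 9 of 20 at 72 h and 4 at 120 h. NBR1, a cargo receptor of autophagy, was 2.46-fold higher and 1.1-fold higher, and UVRAG, a regulator of vesicle maturation, 1.96-fold higher and 2.01-fold higher. ACTA1, skeletal muscle actin, measured 7.63 (control) and 10.95 (miR-124) at 72 h and 6.84 and 8.68 at 120 h and was called higher at both times. Of glycolysis and pentose phosphate genes 10 of 26 were called higher at 72 h and 4 at 120 h, and 2 and 7 lower, with ENO2, neuronal enolase, 3.45-fold higher and 1.61-fold higher. Beside these 3 lists, 17.4% of all genes tested were called higher and 19.8% lower at 72 h, and 14.5% and 8.69% at 120 h.

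Lower at 120 h only were 74 genes, with a median ratio of 0.14 at 72 h and −0.65 at 120 h. DEPP1, a FOXO-induced regulator of autophagy, measured 5.99 in the control and 6.05 in the miR-124 array at 72 h, and 8.82 and 6.45 at 120 h. IGFBP1, a liver-secreted binding protein of insulin-like growth factors, measured 10.52 in the control and 10.37 in the miR-124 array at 72 h, and 12.88 and 10.53 at 120 h. CCN2, connective tissue growth factor, measured 8.61 in the control and 8.75 in the miR-124 array at 72 h, and 10.77 and 9.12 at 120 h. In these genes 3 arrays lay close together and the 120 h control alone was high. Both 72 h levels of DEPP1 lay below 6.19, the minimum mean for testing, and may be background. The difference was −2.42 ± 0.21 for DEPP1 (limma adjusted p = 0.00295) and −2.21 ± 0.15 for IGFBP1 (limma adjusted p = 0.00154). SPAG4, a nuclear envelope protein, and MIR210HG, the host transcript of a hypoxia-induced microRNA, had the same shape, SPAG4 at 6.39 (control) and 6.39 (miR-124) at 72 h and 8.45 and 6.83 at 120 h and MIR210HG at 6.40 (control) and 6.59 (miR-124) at 72 h and 7.66 and 6.45 at 120 h. PLAC8 was 2.69-fold lower and PLA2G2A, a secreted phospholipase, 2.29-fold lower at 120 h.

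The hypoxia response, the genes that cells induce when oxygen is short, changed sign between the times. Of 20 tested 12 were called higher and 3 lower at 72 h, and 3 and 9 at 120 h. The difference was called lower in 10 and higher in 1, or 6 and 0 without the time block. The list had a median ratio of 0.50 at 72 h, which turned to −0.30 at 120 h. From 72 to 120 h the median change of level was 0.77 in the control and 0.00 in the miR-124 cells. BNIP3L, a mitophagy receptor, measured 7.97 in the control and 9.51 in the miR-124 array at 72 h, and 10.23 and 9.25 at 120 h. DDIT4, an inhibitor of mTOR signalling, measured 8.98 in the control and 8.62 in the miR-124 array at 72 h, and 10.24 and 8.91 at 120 h. NDRG1, a stress-induced differentiation gene, measured 8.26 in the control and 9.25 in the miR-124 array at 72 h, and 9.82 and 9.19 at 120 h. In each the 120 h control was the highest array. Not all members changed sign, since DDIT4, LOX and P4HA1 were below their controls at both times. BHLHE40, a clock repressor outside the list, measured 9.44 (control) and 9.71 (miR-124) at 72 h and 10.83 and 9.72 at 120 h with the same high 120 h control.

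The DDIT4 promoter is shown as an example for the same window, chr10:72273674-72273973 on the + strand of GRCh38.p14. Matches on either strand to ACGTG, the core of the hypoxia response element, are in capitals. DDIT4 was taken from members of the hypoxia list whose promoter held this core, so its match was set by choice. The promoter of ANKRD37, another such member, held 3 matches and is not printed. DDIT4 itself was below its control at both late times and did not change sign.
DDIT4: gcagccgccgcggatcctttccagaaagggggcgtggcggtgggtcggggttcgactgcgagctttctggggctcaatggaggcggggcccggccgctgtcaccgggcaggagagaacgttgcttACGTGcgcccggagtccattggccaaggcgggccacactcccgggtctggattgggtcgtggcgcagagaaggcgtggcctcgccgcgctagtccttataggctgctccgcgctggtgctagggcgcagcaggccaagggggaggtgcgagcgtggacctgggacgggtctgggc
The core was found in 8 of the 16 hypoxia list promoters that RefSeq gave, against 21.6% of all promoters of that length and 25.9% of those of the genes tested. It was also in 12 of 18 ribosome biogenesis promoters (66.7%) and in 39.7% of those of the genes lower at both times.

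Higher at 120 h only were 116 genes, with a median ratio of −0.16 at 72 h and 0.58 at 120 h. ACSM2A, a mitochondrial enzyme that activates medium-chain fatty acids, measured 8.00 in the control and 8.00 in the miR-124 array at 72 h, and 7.97 and 9.69 at 120 h. Here the 120 h miR-124 array alone was high. SMAD7, an inhibitor of TGF-beta signalling, measured 7.93 in the control and 8.13 in the miR-124 array at 72 h, and 7.32 and 8.57 at 120 h. PER2, a repressor of the circadian clock, measured 8.94 in the control and 8.96 in the miR-124 array at 72 h, and 8.19 and 9.25 at 120 h. In both the control fell and the miR-124 cells rose, so part of the ratio lay in each arm. SALL1, a zinc finger transcription factor, read 9.03 (control) and 8.74 (miR-124) at 72 h and 8.11 and 9.29 at 120 h, and PIK3R1, a regulatory subunit of phosphoinositide 3-kinase, 8.06 (control) and 8.18 (miR-124) at 72 h and 7.59 and 8.65 at 120 h. EIF5A2, a translation factor, was 2.07-fold higher at 120 h. NUP98, a nuclear pore protein, was 2.31-fold higher, but its other 2 probe sets had the opposite sign.

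Some genes were called at both times in opposite directions. Higher at 72 h and lower at 120 h were 25 genes, and lower at 72 h and higher at 120 h were 69. TMCC1, a membrane protein of the endoplasmic reticulum, measured 7.41 in the control and 8.40 in the miR-124 array at 72 h, and 10.27 and 8.36 at 120 h. Its miR-124 arrays were nearly equal and the whole turn lay in the control, with a difference of −2.91 ± 0.19 (limma adjusted p = 0.00145), though 1 of its 5 probe sets had a negative ratio at 72 h. MAML2, a Notch coactivator, read 6.49 (control) and 7.58 (miR-124) at 72 h and 7.87 and 7.37 at 120 h. In the other direction, GSTA1, a glutathione transferase of hepatocytes, measured 10.49 in the control and 9.50 in the miR-124 array at 72 h, and 8.99 and 10.59 at 120 h. ADH4, a liver alcohol dehydrogenase, measured 10.28 in the control and 9.51 in the miR-124 array at 72 h, and 9.40 and 10.83 at 120 h. In both the control was lower at 120 h than at 72 h and the miR-124 level higher. MCM8, a helicase of DNA repair, was 2.75-fold lower and 1.42-fold higher.

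The classes differed in which arm moved between 72 and 120 h. These changes are set by the ratios that chose the classes and are a description. In genes lower at 72 h only the median change was −0.41 in the control and 0.50 in the miR-124 cells. In genes higher at 72 h only it was 0.55 and −0.25, in those lower at 120 h only 0.67 and −0.12, and in those higher at 120 h only −0.54 and 0.22. For the genes lower at both times the control changed by 0.17 and the miR-124 cells by 0.92, and for those higher at both by −0.02 and −0.13. Over all genes the SD of this change was 0.307 in the control and 0.322 in the miR-124 cells, and 209 genes were at least 2-fold higher at 120 h in the miR-124 cells against 119 in the control, while 10 and 33 were lower by as much.

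**Figure D5:**
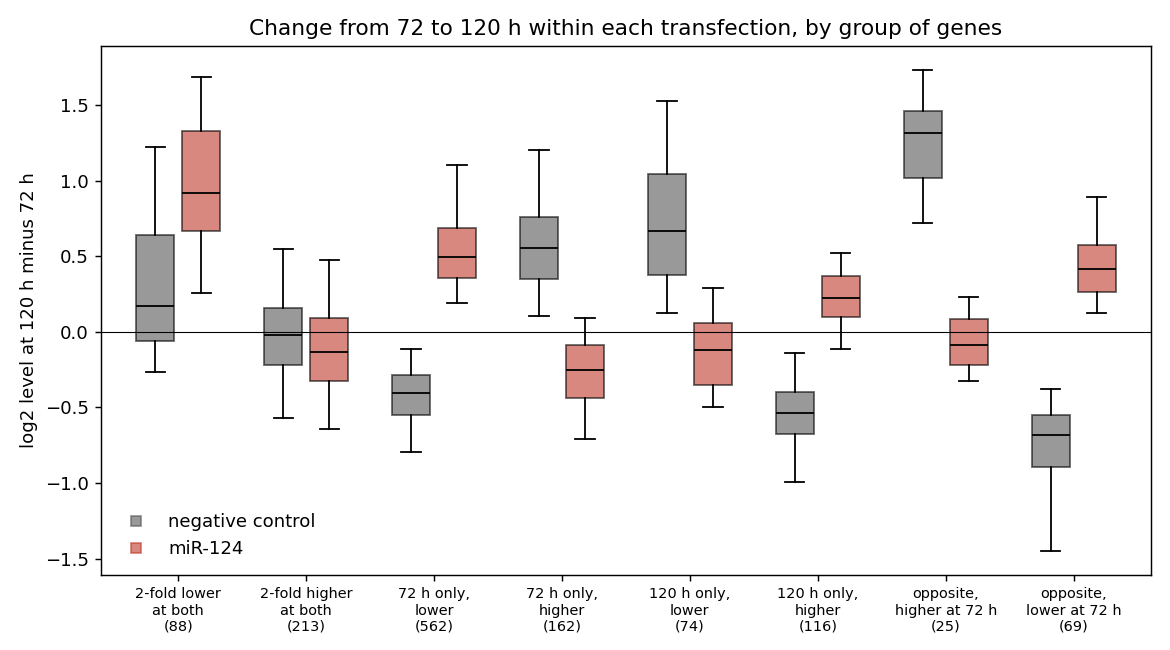
Change of the log2 level from 72 to 120 h in the control and in the miR-124 cells, by class of genes. Boxes give the median and quartiles over genes and whiskers the 5th to 95th percentiles, and the control carries the larger median change in the classes higher at 72 h only (0.55) and lower at 120 h only (0.67).

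The middle window was set beside these classes, since its effect did not choose them. Its calls share part of their estimate of spread with the calls that did, so they are not independent of the classes. Of the 88 genes lower at both late times 55 (62.5%) were already called lower over 16 to 32 h, with a median effect of −0.78, and of the 213 higher at both 90 (42.3%) were called higher, with a median of 0.40. Over all genes tested, 3.46% were called higher and 4.36% lower in that window. Of genes seen at 72 h only, 39 of 562 lower (6.9%) and 2 of 162 higher (1.2%) were called the same way there. Of genes seen at 120 h only, 1 of 74 lower (1.4%) and 0 of 116 higher were. CD164 had a middle effect of −2.72 and LOX of −2.55, against −0.52 for SERPINA3, 0.67 for STAR and −0.03 for VNN1.

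The late effect exceeded the middle effect upward in 422 genes (3.21%) and downward in 202 (1.54%), or in 376 and 277 with centred arrays. This count rested on single times, with 78 genes called without the 24 h arrays, 148 without 16 h, 245 without 32 h, 297 without 4 or 8 h, 1175 without 72 h and 2369 without 120 h. Late against middle, SERPINA3 changed by −2.70 ± 0.12 (limma adjusted p = 0.000196) and NUF2, which ties microtubules to kinetochores, changed by −2.25 ± 0.39 (limma adjusted p = 0.0209). VNN1 rose by 2.45 ± 0.12 (limma adjusted p = 0.000321). Mitotic genes were called lower than in the middle window in 13 of 32, but in 0 without the 24 h arrays, ATF4 targets in 8 of 25 (1 without 24 h), and histones higher in 7 of 14 (4 without 24 h).

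Other lists moved little or in both directions. Beside them, 17.4% of all genes tested were called higher and 19.8% lower at 72 h, and 14.5% and 8.69% at 120 h. Oxidative phosphorylation had 6 of 28 called higher and 4 lower at 72 h, and 1 lower at 120 h. Lysosomal genes were called higher in 11 of 27 and lower in 5 at 72 h and in 10 and 5 at 120 h, with ATP6V1H, a subunit of the proton pump, at 1.15 at 72 h and 0.57 at 120 h. Interferon-responsive genes were higher in 10 of 29 and lower in 3 at 72 h and in 7 and 4 at 120 h. OAS1, an antiviral synthetase, was 2.28-fold higher and 1.45-fold higher, while IFITM2, an antiviral membrane protein, measured 10.06 (control) and 10.06 (miR-124) at 72 h and 11.23 and 10.12 at 120 h. In the list of small RNA factors, 7 of 21 had a higher call and 4 a lower one at 72 h, and 5 and 3 at 120 h. AGO4, an Argonaute, was 4.35-fold higher and 1.51-fold higher, and TNRC6A, its silencing partner, 1.98-fold higher and 2.15-fold higher. At 72 h the ratios of the 2 AGO4 probe sets ran from 0.41 to 2.12 and those of the 6 of TNRC6A from −0.01 to 1.17. In the other direction DCP1A, a decapping factor, had ratios of −1.03 at 72 h and −0.67 at 120 h, and AGO2, the slicing Argonaute, −0.24 at 72 h, not called, and −0.82 at 120 h. Hepatocyte markers were called lower in 2 of 13 at 72 h and higher in 1 at 120 h.

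Each transfection was measured by 1 array per time, so the tests at a single time cannot see the spread between cultures. Fitted on the 4 late arrays alone, 469 late effects were called in place of 3821.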

How the data were processed

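Total RNA of HepG2 cells was labelled as biotinylated cRNA and hybridised to 1-colour oligonucleotide arrays, per the labels' protocols. The deposited values are log2 expression levels of probe sets. The submitters' processing notes name RMA, whose version is not given in the sources used here. RMA subtracts background, makes the arrays' distributions alike and fits 1 level per probe set. The log2 scale was read from the values (2.93 to 14.37).

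Of 54675 probe sets, 62 were controls, 41091 had 1 gene symbol in the platform annotation, 1801 several and 11721 none listed. The brightest probe set on average across 14 arrays stood for each of 19775 genes, and the 13137 with a mean above 6.19, the median of all probe sets, were tested. Arrays have no depth, and their number limits the precision.

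Tests used limma 3.58.1 in R 4.3.3 (lmFit and eBayes, two-sided) with time as a block. The late and late minus middle effects came from 1 fit of window effects with 4 residual degrees of freedom. Effects at 72 h and 120 h and their difference came from a fit with a term for each late time, with 3 residual degrees of freedom. Arrays of a time were paired by their labels, and their deviations correlated at 0.206 to 0.480 in the 7 pairs. Alternatives were no minimum level, the mean of all probe sets, centred arrays, a 1.5-fold minimum, an intensity trend, no time block, and leaving out each time.

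The members and gene lists were chosen with earlier results of these data known. Genes were named as the 10 lowest and 10 highest of each class, up to 5 each way for opposite signs and for late against middle, and up to 6 members of each list by the size of their ratio. ALB was added as a marker of the line and RDH10 as the only called exception in its list, after their values were seen. Promoter sequences were RefSeq's on GRCh38.p14, matched by symbol for 10545 of the genes tested. Python 3.11.15 with matplotlib 3.10.9 drew the figures.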

Additional observations from a re-analysis of the deposited data

Results flagged for a closer look

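The results in this section stand out because the effect of miR-124 differed between times by a limma test of the difference itself (Benjamini-Hochberg adjusted p under 0.05 over all genes tested). The members of each class were picked for that difference, and values at a single time rest on 1 pair of arrays. Unless said otherwise a value is the log2 ratio at 120 h minus that at 72 h.

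In genes lower at 72 h only the ratio rose toward 0. It changed for CDC6 by 3.14, HELLS by 2.54, SKP2 by 2.63, MCM10 by 2.85 and LMNB1 by 2.64. Among the other members it changed for OTUD6B by 2.30, G3BP1 by 2.20, GINS2 by 2.28, KISS1R by 2.20 and RFC5 by 2.23. In genes higher at 72 h only the ratio fell back. It changed for CAVIN2 by −1.78, ANKRA2 by −1.76, ASB2 by −1.46, ORAI3 by −1.36 and RORA by −1.26. The ratio of the remaining members changed, for ARID5B by −1.47, LGALS8 by −1.30, PCCA by −1.12, CCN1 by −1.24 and MT1X by −1.35.

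In genes lower at 120 h only the ratio dropped. It changed for DEPP1 by −2.42, IGFBP1 by −2.21, CCN2 by −1.79, SPAG4 by −1.61 and RAB42 by −1.43. It also changed for PLAC8 by −1.55, CEACAM1 by −1.05, FMO5 by −1.18, MIR210HG by −1.39 and PLA2G2A by −1.04. In genes higher at 120 h only the ratio rose, for ACSM2A by 1.72, SMAD7 by 1.06, NUP98 by 1.08, SALL1 by 1.48 and COL16A1 by 0.96. It also rose for ZNF189 by 0.76, PIK3R1 by 0.93, PER2 by 1.04, EIF5A2 by 1.20 and RBMXL1 by 1.02.

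In genes called at both times with opposite signs the change crossed 0. The ratio of those higher at 72 h changed for TMCC1 by −2.91, BNIP3L by −2.52, TUBB1 by −2.28, NDRG1 by −1.62 and MAML2 by −1.60. The ratio of those lower at 72 h changed for ALDH8A1 by 2.64, GSTA1 by 2.59, DLEU2 by 2.50, ADH4 by 2.21 and MCM8 by 1.96. Of the 4 late ALDH8A1 levels 3 lay below 6.19, the minimum mean for testing, and may be background.

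Between the middle window (16 to 32 h) and the late window the mean ratio also differed. The late effect minus the middle effect was negative in SERPINA3 at −2.70, CP at −2.36, NUF2 at −2.25, HAL at −2.10 and CDK1 at −1.93. It was positive in MAF at 2.66, STAR at 2.61, H1-2 at 2.51, VNN1 at 2.45 and H2BC5 at 2.44.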

How the results depend on the processing

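With 1 array per transfection and time, the counts depend on how the spread was estimated. The late effect was called in 3821 genes, in 2062 with a 1.5-fold minimum and in 469 when the 4 late arrays were fitted alone. Leaving out each time in turn gave 2861 (without 24 h) to 4892 (without 120 h). For the late minus middle effect the count of 624 ran from 78 (without 24 h) to 2369 (without 120 h). For 72 h the count of 4892 became 3050 with a 1.5-fold minimum and ran from 4138 to 5242 with a time left out. For 120 h the count of 3052 became 1673 with that minimum and ran from 2046 (without 24 h) to 3655 (without 16 h). The difference between 120 and 72 h was called in 1414 genes, in 927 with the mean of all probe sets, in 630 with no time block, and in 574 (without 24 h) to 2029 (without 16 h) with a time left out.

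Without the time block, which drops the pairing of arrays by time, the other counts were 3795 (late), 482 (late minus middle), 4270 (72 h) and 2278 (120 h). Of the named genes 13 of 50 lost their call for the difference without the block, 7 of 50 without the 24 h arrays and 2 of 50 with centred arrays. For the late effect 149 of 216 named genes lost their call when the 4 late arrays were fitted alone, and 37 of 216 without the 72 h arrays. The late effect of ACSL4 turned from −0.53 to 0.62 with the mean of its probe sets, which differ in sign. The cause of the other changes was not tested.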
